A study of Sus scrofa with 9 samples.

Results

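Ubiquitin-conjugating (E2) enzyme genes were followed in pig oocytes that had matured to metaphase II (MII), the stage at which the egg waits for fertilisation. The genes are all rows of the deposited count table whose gene name starts with UBE2, which gave 28 of 23507 genes. They were described in 3 groups of wild-type oocytes with 3 libraries each. HS+Lasp oocytes were kept at 41.5 °C for 24 h, with L-aspartate (L-Asp) in the medium during the heat, and then at 38.5 °C until MII. The labels list L-Asp at 0.5, 1.0 and 1.5 mmol/L and do not say which of these the sequenced oocytes received. HS (heat stress) oocytes had the same heat without L-Asp, and control oocytes matured at 38.5 °C throughout. Oocytes of every group were selected with compact cumulus layers and matured in vitro in the same hormone-containing medium, and the design gives 25 oocytes per group. Whether the libraries of a group came from separate collections or animals is not stated, so the p-values below measure only the spread between these libraries, which may be technical.

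E2 enzymes take activated ubiquitin from an E1 enzyme and, with an E3 ligase that picks the substrate, pass it on to proteins. The kind of chain they build decides the outcome, since chains through lysine 48 or lysine 11 of ubiquitin mark proteins for the proteasome and chains through lysine 63 serve mainly in signalling and DNA damage tolerance. In oocytes, the anaphase-promoting complex (APC/C), an E3 ligase, uses UBE2C and UBE2S to build the chains that destroy cyclin B and securin at the exit from metaphase. A fully grown oocyte makes almost no new RNA, so its messenger RNAs are a store laid down during growth.

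The libraries held 41693395 to 49008681 counts in HS+Lasp, 46198885 to 53327419 in HS and 54965064 to 58361475 in control. The HS+Lasp libraries differed from each other with a median index of dispersion of 79.4 to 84.9 per pair and the HS libraries with 109 to 119, against 5.19 to 5.22 for the control libraries, where independent counts would give 1. The control libraries thus lay much closer together than those of the heated groups, but further apart than sampling of independent counts would leave them. Whether they are repeat libraries of 1 sample cannot be told from these values. As a cautious choice they were averaged and counted as 1 sample, which has no SD, and the fit with 9 libraries is given beside it. The labelled cell type was checked with the 14 of 15 listed oocyte markers present in the table, none of which was at 0 in any group. Their summed level was 19790 to 22990 CPM (counts scaled to library size) in HS+Lasp, 15640 to 20110 CPM in HS and 31400 to 31670 CPM in control, and 4 of the 14 lay above and 6 below the averaged control in all HS libraries. Cumulus and granulosa cell markers summed to 317 to 405 CPM in HS+Lasp, 232 to 366 CPM in HS and 266 to 275 CPM in control, over 16 of 19 listed markers, of which 6 lay above and 1 below control in all HS libraries. Over the 15012 genes that passed the filter on low counts, 17.3% lay above and 25.0% below the averaged control in all HS libraries. VCAN, GATA4 and FST made up most of that sum, and rarer markers differed more. CYP11A1, the enzyme that starts steroid synthesis, had 1.32, 7.80 and 0.687 CPM in HS+Lasp, 5.98, 6.37 and 15.1 CPM in HS and at most 0.116 CPM in control. The gap junction gene GJA1 had 5.03, 1.60 and 7.03 CPM in HS+Lasp, 6.97, 7.15 and 13.4 CPM in HS and at most 1.56 CPM in control. GATA6 and INHBA were at 0 in every control library and had counts in every heated one, at most 1.60 CPM. With edgeR and the averaged control, 0 of 12 tested markers were called. With 9 libraries, edgeR called CYP11A1, INHBA, GJA1 and GATA6 higher for HS and CYP11A1 and GATA6 higher for HS+Lasp against control. DESeq2 called CYP11A1, FSHR, GJA1 and GATA6 higher for HS and CYP11A1 and FSHR higher for HS+Lasp against control. FSHR is not among the 12, since it did not pass the filter on low counts. Among the heated libraries, FSHR had counts only in HS library 3 and HS+Lasp library 2. PTX3 was at 0 in all libraries of every group, and LHCGR and AMH were at 0 in all HS and control libraries. Theca and stroma markers summed to at most 11.0 CPM, blood and immune markers to at most 5.10 CPM and endothelial markers to at most 42.6 CPM in any library. In such bulk libraries, fewer cells of a type and less RNA per cell cannot be told apart, and after oligo(dT) priming neither can the amount of an RNA and the length of its poly(A) tail.

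The E2 genes took a small and similar share of the counts in the 3 groups. They made up 0.487 to 0.554% of all counts in HS+Lasp, 0.531 to 0.596% in HS and 0.566 to 0.570% in control. Levels of different genes were compared per length, within a library, by the deposited FPKM, which scales fragments by transcript length and library size. By the mean over all libraries UBE2C was the most abundant of the 28 UBE2-named genes. It had 257 ± 64.4 FPKM in HS+Lasp, 239 ± 70.0 FPKM in HS (SD, n = 3 libraries each) and 497 FPKM in control. UBE2V2 followed with 200.4 ± 65.0 FPKM in HS+Lasp, 276 ± 52.3 FPKM in HS and 319 FPKM in control, and then came UBE2V1, UBE2G1 and UBE2D3. UBE2C was not first in every library, since UBE2V2 was above it in 3 of 9, HS+Lasp library 1 and HS libraries 1 and 2. UBE2V2 was also above UBE2C in the HS mean. These 5 genes together held 58.9 to 64.7% of the summed FPKM of the 28 genes (the summed E2 FPKM) in HS+Lasp, 61.7 to 71.6% in HS and 69.1 to 69.5% in control. At the other end, UBE2J1, UBE2D4, UBE2L6 and UBE2Z had mean levels of 0.051 to 0.110 FPKM in control.

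For 12 of 28 members, the share of this pool in all 6 heated libraries lay on 1 side of all 3 control libraries. The shares of UBE2C and UBE2T were lower, and those of UBE2A, UBE2B, UBE2D1, UBE2D3, UBE2E1, UBE2G2, UBE2J2, UBE2Q1, UBE2V1 and UBE2W were higher. The summed E2 FPKM itself was 1392 to 1625 in HS+Lasp and 1407 to 1626 in HS, against 1900.0 to 1918 in control. A share can therefore be higher with no higher FPKM, as for UBE2D3 with a mean of 134 FPKM in HS+Lasp and 152.5 in control. Shares within a library are tied, so a lower share of UBE2C raises the others. The 12 have no background over all genes and are not a count of genes whose level changed. UBE2C was 17.2 ± 3.69% of the summed E2 FPKM in HS+Lasp and 15.4 ± 4.09% in HS, against 26.0% in control. UBE2T was 1.84 ± 0.785% in HS+Lasp and 1.69 ± 0.155% in HS, against 4.95% in control. UBE2E1 was 4.58 ± 0.410% in HS+Lasp and 4.05 ± 0.307% in HS, against 1.56% in control (SD, n = 3 libraries each for the heated groups). No HS+Lasp or HS library reached the control share of UBE2C or UBE2T, and no control library reached the lowest heated share of UBE2E1. Between HS+Lasp and HS, the libraries did not overlap in the share of UBE2D2, which was higher in HS+Lasp, and of UBE2D3, which was lower in HS+Lasp. In CPM, the HS+Lasp and HS libraries of both genes overlapped.

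**Figure D1:**
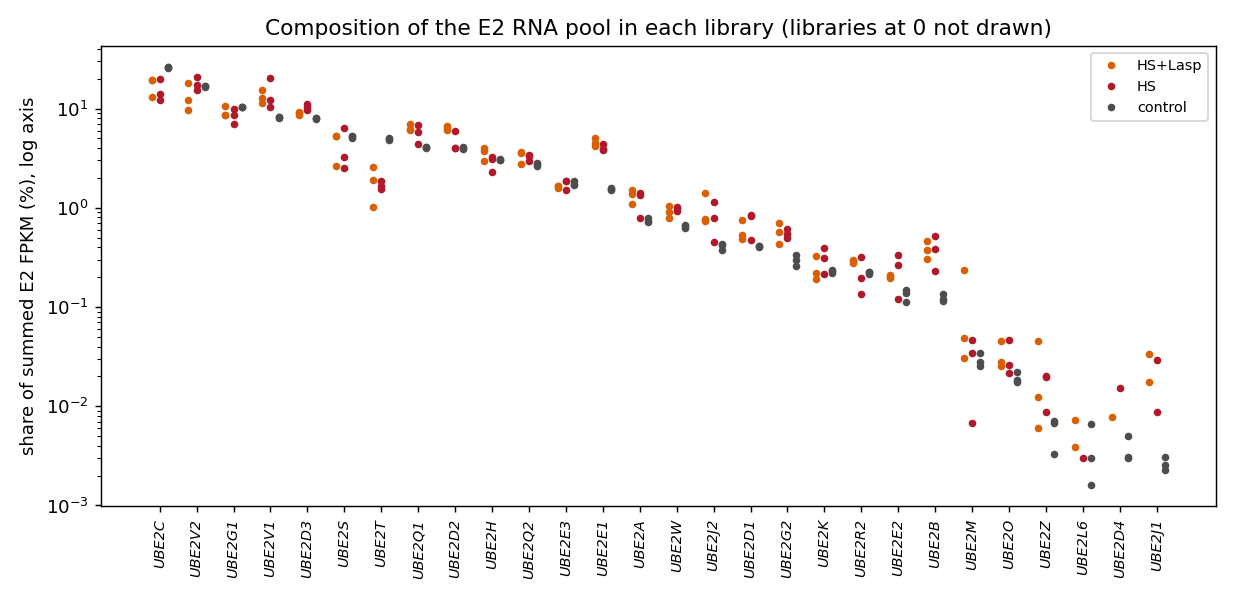
Share of each UBE2-named gene in the summed FPKM of all 28 in its library, in percent on a log axis, with genes ordered by their mean share in control and 1 point per library (HS+Lasp left, HS middle, control right within each gene). The heated libraries lie apart from control for 12 genes, among them UBE2C, UBE2T and UBE2E1, and HS+Lasp lies apart from HS for UBE2D2 (higher) and UBE2D3 (lower). Shares within a library are tied, so these are not counts of genes whose level changed.

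All 28 genes passed the filter on low counts, which kept 15012 genes of the table. No E2 gene passed the test in any comparison. With edgeR's quasi-likelihood test and Benjamini-Hochberg adjustment over all genes, 0 of 28 were called at an adjusted p under 0.05 for HS against control, where 0.0% of all genes were called, for HS+Lasp against HS, with 0.0% of all genes, and for HS+Lasp against control, with 0.0% of all genes. An unadjusted p under 0.05 was found for 3 E2 genes in HS against control (UBE2C, UBE2E1 and UBE2T), for 0 in HS+Lasp against HS and for 4 in HS+Lasp against control (the same 3 and UBE2V2). Over all genes, 3.86%, 6.61% and 3.22% had such a p in these 3 comparisons. The 2 comparisons with control share the control libraries, and both comparisons with HS share the HS libraries.

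Other tests called a few members. With the 3 control libraries taken as separate replicates, edgeR called 3 E2 genes for HS against control, UBE2C and UBE2T lower and UBE2E1 higher, where it called 2.88% of all genes. The same fit called 0 for HS+Lasp against HS (0.0133% of all genes) and 2 for HS+Lasp against control, UBE2T lower and UBE2E1 higher (1.79% of all genes). DESeq2 with the averaged control called UBE2T lower for HS against control (1.13% of all genes) and for HS+Lasp against control (0.386% of all genes), and 0 E2 genes for HS+Lasp against HS (0.934% of all genes).

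As a group the E2 genes did not move to one side. The median log2 fold change of HS over control was -0.06 over the 28 genes, with 12 above 0 and 16 below, beside 0.00 over all genes, and it was 0.02 without HS library 1, -0.14 without HS library 3 and 0.01 over members with a mean count of at least 50. For HS+Lasp over HS it was 0.09, with 19 above 0 and 9 below, beside -0.01 over all genes, and it was -0.05 without HS+Lasp library 3. For HS+Lasp over control it was 0.02, with 15 above and 13 below, beside 0.01 over all genes, and it was -0.05 without HS+Lasp library 2, 0.10 without control library 2 and 0.12 at a mean count of at least 50. None of these medians has a stable sign. In HS against control, 4 E2 genes had all 3 HS libraries above the averaged control (17.3% of all genes did) and 10 had all 3 below it (25.0% of all genes). In HS+Lasp against control these numbers were 9 above (19.0% of all genes) and 10 below (26.0% of all genes). Between HS+Lasp and HS, 0 E2 genes had libraries that did not overlap, where 6.31% of all genes lay higher and 5.54% lower in every HS+Lasp library. The control side of these counts is the averaged library, so a heated library can lie past it and still among the single control libraries.

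**Figure D2:**
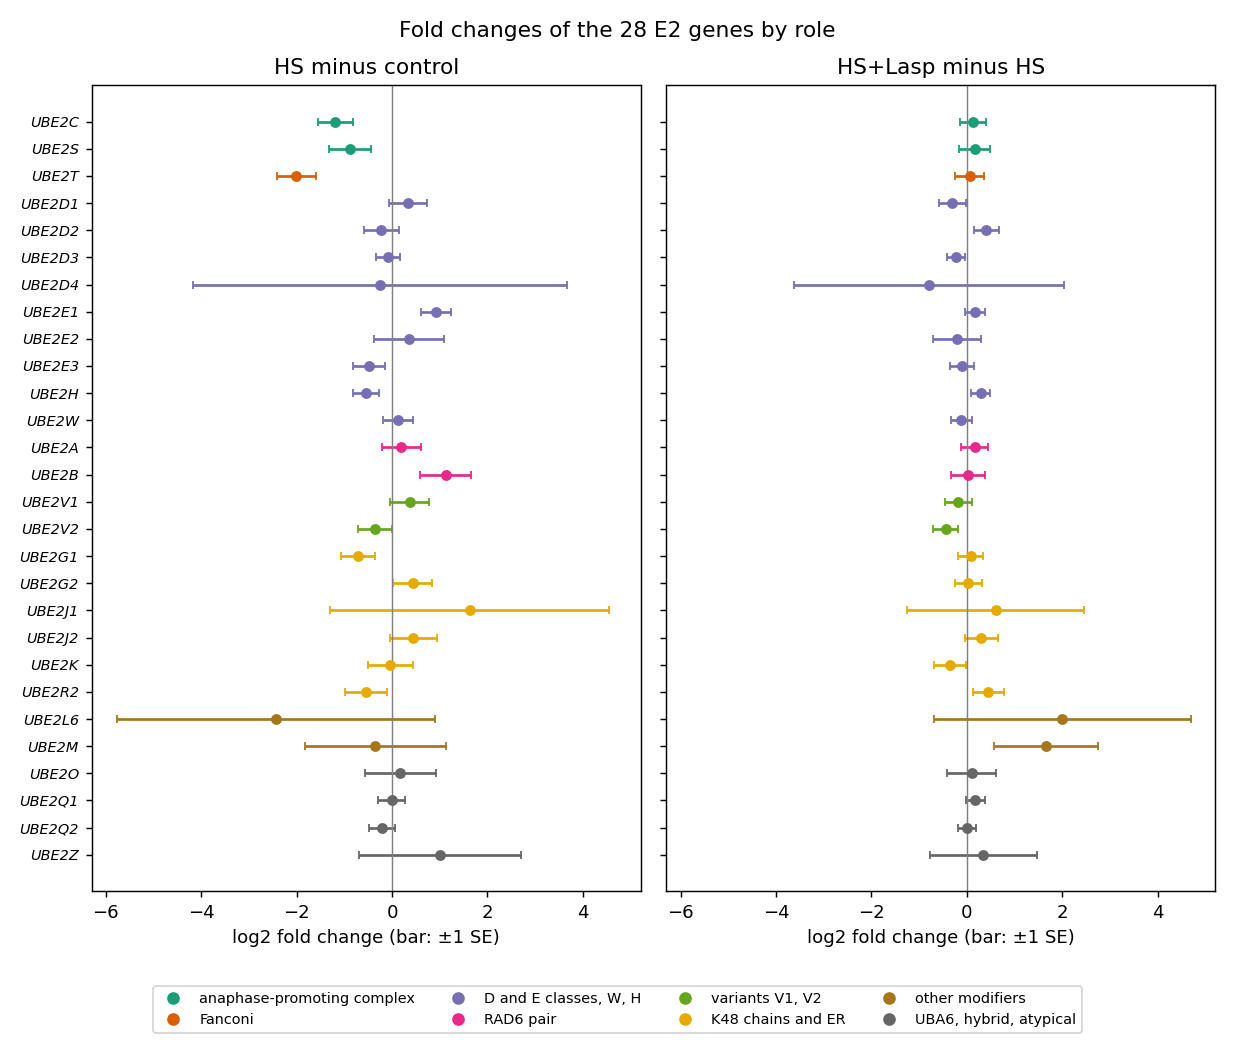
Log2 fold change (edgeR) of each E2 gene for HS minus control (left) and HS+Lasp minus HS (right), with bars of ±1 SE and colours for the role of the gene. UBE2T (-2.003), UBE2C (-1.19), UBE2E1 (0.92) and UBE2B (1.12) lie farthest from 0 in the left panel among genes with narrow bars, and the wide bars belong to genes with few counts.

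UBE2T is the E2 of the Fanconi anaemia pathway, which repairs DNA crosslinks, and puts a single ubiquitin on FANCD2 and FANCI together with the ligase FANCL. Its gene lies on chromosome 10 from 24454495 to 24459057 on the minus strand, in the coordinates of the table, for which no source used here names a genome build. UBE2T had 35.2, 20.7 and 45.7 CPM in the HS+Lasp libraries, 32.3, 26.5 and 38.8 CPM in the HS libraries and 128, 133 and 130 CPM in the control libraries. Every heated library lay far below every control library, and the HS+Lasp and HS libraries overlapped. The log2 fold change was -2.003 ± 0.40 (SE) for HS over control, with an edgeR p of 0.000395 and an adjusted p of 0.384. It was -1.95 ± 0.40 for HS+Lasp over control, with an edgeR p of 0.000503 and an adjusted p of 0.797. UBE2T was the member with the largest fold change among those with a mean of at least 1 CPM in HS against control. DESeq2 gave it an adjusted p of 0.00855 for HS and 0.0265 for HS+Lasp against control, and edgeR with 9 libraries gave 0.00429 and 0.00800. For HS+Lasp over HS the log2 fold change was 0.06, with a 95% interval of -0.62 to 0.74 and an edgeR adjusted p of 0.994, and it was -0.22 without HS+Lasp library 3 and -0.07 without HS library 2.

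UBE2C starts ubiquitin chains on substrates of the APC/C, and UBE2S extends them through lysine 11. UBE2C lies on chromosome 17 from 48018400 to 48021534 on the plus strand and had 184, 310 and 266 CPM in HS+Lasp, 197, 176 and 325 CPM in HS and 541, 525 and 528 CPM in control. All 6 heated libraries were below the control libraries, and the groups with and without L-Asp overlapped. The log2 fold change was -1.19 ± 0.37 (SE) for HS over control, with an edgeR p of 0.00753 and an adjusted p of 0.779, and -1.07 ± 0.37 for HS+Lasp over control, with an edgeR p of 0.0140 and an adjusted p of 1.0. DESeq2 did not call it (adjusted p of 0.274 for HS and 0.637 for HS+Lasp against control), while edgeR with 9 libraries gave adjusted p values of 0.0272 and 0.0573.

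UBE2S lies on chromosome 6 from 59565033 to 59570489 on the minus strand and had 60.8, 136 and 118 CPM in HS+Lasp, 65.3, 130 and 86.3 CPM in HS and 177, 177 and 167 CPM in control. Its heated libraries were again all below control, and they varied more among themselves than those of UBE2T. The log2 fold change of HS over control was -0.89 ± 0.44, with an edgeR p of 0.0699, and that of HS+Lasp over control was -0.73 ± 0.45, with an edgeR p of 0.132. Against HS, HS+Lasp had log2 fold changes of 0.12 for UBE2C (95% interval -0.48 to 0.73) and 0.16 for UBE2S (95% interval -0.56 to 0.88), with edgeR adjusted p of 0.977 and 0.973. Neither sign was stable, since UBE2C was at -0.04 without HS library 2 and at -0.03 without HS+Lasp library 2, and UBE2S was at -0.04 without HS library 1 and at -0.05 without HS+Lasp library 2. The summed oocyte markers were also lower in every heated library than in control, as given above. BTG4, BMP15 and KPNA7 made up most of that sum. BTG4 averaged 7384 CPM in HS+Lasp, 7322 in HS and 15800 in control, and BMP15 averaged 2174, 2068 and 5174 CPM. Of the 14 markers, 6 lay below control in all HS libraries (25.0% of all genes did) and 4 above (17.3% of all genes). The 4 above include ZP3, ZP4 and OOEP. The part of these markers in the values of UBE2T, UBE2C and UBE2S was not tested.

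**Figure D3:**
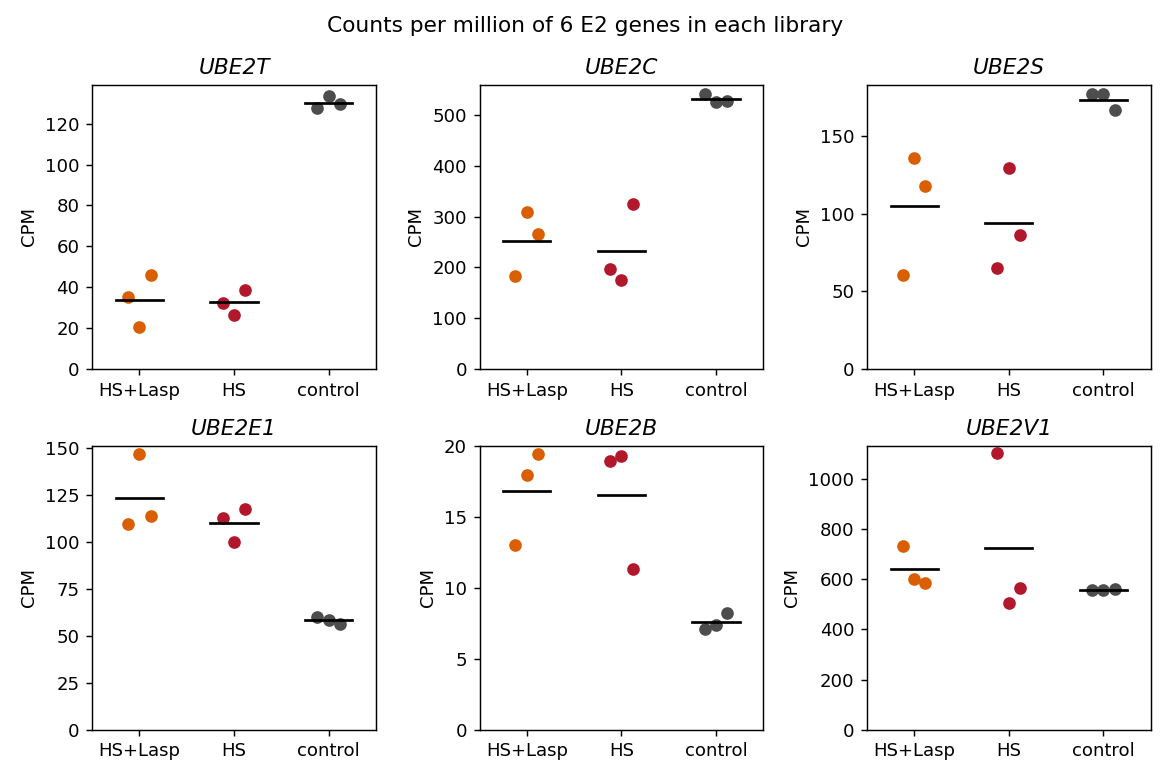
CPM of 6 E2 genes in each library (points) with the group mean (line), for HS+Lasp, HS and control from left to right, each panel on its own axis from 0. UBE2T, UBE2C and UBE2S are lower and UBE2E1 and UBE2B higher in all heated libraries than in control, and UBE2V1 has a single high HS library at 1104 CPM.

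The D and E classes are E2s that work with many E3 ligases. UBE2E1, which also works with the ligase that ubiquitinates histone H2A, lies on chromosome 13 from 10607132 to 10683816 on the plus strand. It had 110, 147 and 114 CPM in HS+Lasp, 113, 100.2 and 118 CPM in HS and 60.3, 58.6 and 56.1 CPM in control. All heated libraries lay above control, and the HS values were close together. The log2 fold change was 0.92 ± 0.31 (SE) for HS over control, with an edgeR p of 0.0135 and an adjusted p of 0.900. For HS+Lasp over control it was 1.08 ± 0.32, with an edgeR p of 0.00562 and an adjusted p of 1.0. DESeq2 gave adjusted p values of 0.119 and 0.0644, and edgeR with 9 libraries gave 0.0113 and 0.00986. HS+Lasp over HS was 0.17 (95% interval -0.29 to 0.63, edgeR adjusted p of 0.939).

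The close relative UBE2E3 lay on the other side of control, with 31.0, 36.3 and 31.7 CPM in HS+Lasp, 41.0, 31.5 and 33.5 CPM in HS and 49.5, 47.6 and 51.1 CPM in control. Its log2 fold change was -0.48 ± 0.34 for HS and -0.58 ± 0.34 for HS+Lasp over control, with edgeR p of 0.187 and 0.116. Within each library, the FPKM of UBE2E1 over that of UBE2E3 was 2.64 to 3.02 in HS+Lasp and 2.05 to 2.62 in HS, against 0.819 to 0.918 in control. UBE2E1 was therefore the more abundant of the 2 in every heated library, and UBE2E3 was in every control library. This ratio was chosen after its values were seen. UBE2E2, which neighbours UBE2E1 on chromosome 13, was low, with means of 5.26 CPM in HS+Lasp, 6.11 CPM in HS and 4.78 CPM in control.

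UBE2D3, the member with the most counts, had 2065, 2266 and 1856 CPM in HS+Lasp, 2453, 2151 and 2636 CPM in HS and 2522, 2566 and 2579 CPM in control. HS overlapped control, and the 3 HS+Lasp libraries lay below it. The log2 fold changes were -0.08 ± 0.26 for HS over control, -0.31 ± 0.26 for HS+Lasp over control and -0.23 ± 0.18 for HS+Lasp over HS, with edgeR p of 0.755, 0.252 and 0.245. UBE2D2 had 157, 193 and 158 CPM in HS+Lasp, 116, 89.5 and 176 CPM in HS and 146, 148 and 151 CPM in control, and its log2 fold change of HS+Lasp over HS, 0.41 ± 0.26, had an edgeR p of 0.140. UBE2D1 had 56.2, 41.0 and 38.7 CPM in HS+Lasp and 41.0, 55.5 and 71.3 CPM in HS, with a log2 fold change of -0.30 ± 0.28 (edgeR p of 0.294) that was -0.09 without HS library 3. In both genes the HS+Lasp and HS libraries overlapped. The proteins of the D class are nearly identical in mammals, as are those of several other E2 pairs, and no source used here says how reads that fit more than 1 of these genes were counted.

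UBE2H, the E2 of the CTLH ligase complex, had 458, 379 and 417 CPM in HS+Lasp, 404, 323 and 299.7 CPM in HS and 496, 500.4 and 500.0 CPM in control. Its heated libraries all lay below control, with a log2 fold change of -0.54 ± 0.27 for HS over control (edgeR p of 0.0687) and 0.29 ± 0.20 for HS+Lasp over HS (edgeR p of 0.171). UBE2W, which modifies the amino terminus of its substrates, averaged 189 ± 39.7 CPM in HS+Lasp, 205 ± 27.8 CPM in HS (SD, n = 3 libraries each) and 187 CPM in control. Of the 9 genes made up of the D and E classes, UBE2H and UBE2W, 4 lay above 0 and 5 below in HS over control.

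UBE2A and UBE2B are the mammalian versions of yeast Rad6, which ubiquitinates histone H2B and the replication clamp PCNA. UBE2B lies on chromosome 2 from 136652785 to 136667949 on the plus strand and had 13.1, 17.97 and 19.4 CPM in HS+Lasp, 18.9, 19.3 and 11.3 CPM in HS and 7.11, 7.38 and 8.24 CPM in control. All heated libraries were above control. The log2 fold change was 1.12 ± 0.54 (SE) for HS and 1.15 ± 0.54 for HS+Lasp over control, with edgeR p of 0.0595 and 0.0554, and 0.02 for HS+Lasp over HS (95% interval -0.75 to 0.80). As given above, 6 of 16 cumulus and granulosa markers also lay above control in all HS libraries, where 17.3% of all genes did. The part of these markers in the values of UBE2E1 and UBE2B was not tested. UBE2A, whose row overlaps NKRF and STEEP1 on the opposite strand in a preparation that does not mark strand, had 36.3, 55.6 and 44.5 CPM in HS+Lasp, 29.8, 41.2 and 51.0 CPM in HS and 35.1, 34.3 and 37.0 CPM in control. Its libraries overlapped between HS and control, and the log2 fold changes were 0.20 ± 0.41 for HS and 0.36 ± 0.41 for HS+Lasp over control. UBE2B stayed the rarer of the 2, with an FPKM of 0.250 to 0.336 that of UBE2A in HS+Lasp, 0.171 to 0.490 in HS and 0.156 to 0.172 in control.

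UBE2V1 and UBE2V2 are E2 variants without the catalytic cysteine that pair with UBE2N to build lysine 63 chains. UBE2V1 had 733, 600.4 and 588 CPM in HS+Lasp, 1104, 504 and 565 CPM in HS and 558, 559 and 560 CPM in control. HS library 1 stood apart, and the other HS libraries lay on either side of control. The log2 fold change of HS over control was 0.37 ± 0.41 (edgeR p of 0.381) and -0.06 without HS library 1, and that of HS+Lasp over HS was -0.18 ± 0.28 (edgeR p of 0.542) and 0.26 without HS library 1. UBE2V2 had 430, 324 and 224 CPM in HS+Lasp, 556, 358 and 419 CPM in HS and 570, 578 and 553 CPM in control. Its HS+Lasp libraries all lay below control, with a log2 fold change of -0.80 ± 0.36 (edgeR p of 0.0458, adjusted p of 1.0), while HS library 1 was within the control range. HS over control was -0.35 ± 0.36 and HS+Lasp over HS was -0.45 ± 0.26, with edgeR p of 0.352 and 0.117. In every heated library UBE2V1 made up more of the pair than in control: its FPKM over that of UBE2V2 was 0.845 to 1.30 in HS+Lasp and 0.670 to 0.987 in HS, against 0.480 to 0.503 in control, a ratio also chosen after its values were seen.

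Of the E2s that build lysine 48 chains or serve protein degradation at the endoplasmic reticulum (ER), 3 of 6 lay above 0 and 3 below in HS over control. UBE2G1 had 129, 178 and 123 CPM in HS+Lasp, 147, 91.6 and 169 CPM in HS and 225, 224 and 218 CPM in control. Its heated libraries were all below control, with log2 fold changes of -0.71 ± 0.35 for HS and -0.63 ± 0.36 for HS+Lasp over control (edgeR p of 0.0702 and 0.103). UBE2G2, an E2 of ER-associated degradation, lay on the other side with 21.6, 32.2 and 34.6 CPM in HS+Lasp, 31.4, 26.9 and 28.1 CPM in HS and 21.4, 18.7 and 23.8 CPM in control. Its log2 fold changes were 0.43 ± 0.41 for HS and 0.47 ± 0.41 for HS+Lasp over control, with edgeR p of 0.314 and 0.281. The lowest HS+Lasp library lay among the control libraries.

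UBE2J2, a membrane-anchored E2 of the ER, had 28.7, 30.8 and 52.0 CPM in HS+Lasp, 19.3, 37.6 and 33.5 CPM in HS and 20.3, 23.4 and 22.7 CPM in control. HS overlapped control and HS+Lasp did not, with log2 fold changes of 0.44 ± 0.50 and 0.75 ± 0.50 (edgeR p of 0.388 and 0.167). UBE2R2, a relative of CDC34 that works with cullin ligases, had 20.8, 23.9 and 19.3 CPM in HS+Lasp, 11.0, 19.9 and 16.0 CPM in HS and 23.5, 23.2 and 21.96 CPM in control. Its log2 fold change was -0.55 ± 0.44 for HS over control and 0.45 ± 0.32 for HS+Lasp over HS (edgeR p of 0.240 and 0.194), and an unnamed gene overlaps its row on the opposite strand. UBE2K had 29.3, 21.7 and 16.4 CPM in HS+Lasp, 21.7, 24.5 and 39.7 CPM in HS and 28.6, 30.3 and 29.1 CPM in control, with a log2 fold change of -0.35 ± 0.34 for HS+Lasp over HS (edgeR p of 0.318) that was -0.04 without HS library 3.

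UBE2Q1 and UBE2Q2, atypical E2s with a long amino-terminal extension, had means near their control level in both heated groups. For UBE2Q1, the HS+Lasp libraries (187, 218 and 212 CPM) all lay above control (185, 185 and 178 CPM), and HS overlapped control. For UBE2Q2, all heated libraries lay below the averaged control, though HS library 3, at 264 CPM, lay among the single control libraries. UBE2Q1 averaged 206 ± 16.6 CPM in HS+Lasp, 182 ± 26.7 CPM in HS (SD, n = 3 libraries each) and 183 CPM in control, with a log2 fold change of 0.18 ± 0.20 for HS+Lasp over HS (edgeR p of 0.389). UBE2Q2 averaged 228 ± 17.0 CPM in HS+Lasp, 228 ± 34.6 CPM in HS and 265 CPM in control, with a log2 fold change of -0.22 ± 0.27 for HS over control (edgeR p of 0.439). UBE2O, a large hybrid of E2 and E3, averaged 5.02 ± 1.44 CPM in HS+Lasp, 4.69 ± 1.19 CPM in HS and 4.16 CPM in control.

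The remaining members had few counts, spread unevenly over the libraries of a group. UBE2J1 had 86, 186 and 0 counts in HS+Lasp, 0, 133 and 53 in HS and 19, 18 and 23 in control. UBE2Z, which receives ubiquitin from UBA6, had 49, 27 and 150 counts in HS+Lasp, 39, 73 and 92 in HS and 39, 43 and 20 in control. UBE2M, the E2 of NEDD8, had 46, 82 and 293 counts in HS+Lasp, 59, 10 and 84 in HS and 75, 65 and 57 in control, so HS+Lasp library 3 stood apart. Its log2 fold change of HS+Lasp over HS, 1.65 ± 1.09, had an edgeR p of 0.157 and was 0.36 without HS+Lasp library 3, and its row overlaps CHMP2A on the same strand. UBE2D4 and UBE2L6, the E2 of the interferon-induced modifier ISG15, had at most 38 and 27 counts in any library. The standard error reached 3.92 on the log2 scale among these genes in HS against control, so only very large differences were detectable with these libraries.

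The name rule misses 3 further E2 rows, found by their description or by a table of gene names after the table was seen. The row described as E2 I, the E2 of the modifier SUMO, had 513, 609 and 696 CPM in HS+Lasp, 446, 428 and 595 CPM in HS and 702, 679 and 701 CPM in control. Its mean over all libraries, 201.8 FPKM, was above the 191.4 FPKM of UBE2V1, and it is not in the ranking and shares given above. All HS libraries lay below control, with a log2 fold change of -0.50 ± 0.29 (edgeR p of 0.108). The row described as E2 L3 and the row UBE2NL had log2 fold changes of 0.06 ± 0.33 and -0.06 ± 0.33 for HS over control. CDC34, an E2 with its own name that works with cullin ligases, had 82.4, 118 and 116 CPM in HS+Lasp, 80.5, 117 and 79.6 CPM in HS and 50.1, 47.4 and 44.1 CPM in control. DESeq2 did not call CDC34 in any comparison. Its heated libraries were all above control, with log2 fold changes of 0.97 ± 0.37 for HS and 1.16 ± 0.37 for HS+Lasp (edgeR p of 0.0230 and 0.00983, adjusted p of 1.0 in both), and edgeR with 9 libraries called it in both.

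Genes on either side of the E2s in the pathway were read from 9 lists, and edgeR called 0 of their genes in the 3 comparisons. Among the ubiquitin and modifier genes, 6 of 9 tested lay above 0 and 3 below in HS over control, with a median log2 fold change of 0.43. The polyubiquitin gene UBB had 6547, 5151 and 5472 CPM in HS+Lasp, 4265, 5233 and 5211 CPM in HS and 16410, 16270 and 16320 CPM in control. Every heated library lay far below control. UBB had log2 fold changes of -1.74 ± 0.25 for HS and -1.51 ± 0.25 for HS+Lasp over control, with edgeR adjusted p of 0.249 and 0.579. DESeq2 and edgeR with 9 libraries called it lower in both comparisons.

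The list of APC/C substrates, which meet UBE2C and UBE2S on the complex, had 0 of 7 genes above 0 in HS over control, with a median log2 fold change of -0.37, where 7525 of 15012 genes lay above 0. These 7 are the genes present in the table out of 9 listed. GMNN was practically at 0 (-0.009 ± 0.28), and 4 of the 7 had all HS libraries below control (25.0% of all genes did). In HS+Lasp over control, 2 of 7 lay above 0, with a median of -0.27. AURKB, an Aurora kinase, had the smallest p of that list, with 47.7, 67.6 and 88.3 CPM in HS+Lasp, 45.2, 79.9 and 83.4 CPM in HS and 129, 130 and 125 CPM in control. Its log2 fold change was -0.88 ± 0.41 for HS over control (edgeR p of 0.0526). Cyclin B1 (CCNB1) had 850, 937 and 816 CPM in HS+Lasp, 730, 582 and 937 CPM in HS and 983, 976 and 1009 CPM in control, with a log2 fold change of -0.40 ± 0.29. The subunits, activators and inhibitors of the APC/C split into 8 above 0 and 10 below, with a median of -0.02, and BUB1B of the spindle checkpoint had the smallest p (-0.41 ± 0.28, edgeR p of 0.171).

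The partners of UBE2T in the Fanconi pathway split into 4 above 0 and 7 below of 11 tested in HS over control, with a median log2 fold change of -0.08. FANCL, its ligase, had 1387, 1208 and 1199 CPM in HS+Lasp, 1389, 895 and 1126 CPM in HS and 1392, 1389 and 1392 CPM in control, with a log2 fold change of -0.29 ± 0.29 for HS. Its substrate genes FANCD2 and FANCI had 0.56 and -0.09. FANCF had the smallest p, with 4.93, 8.83 and 4.19 CPM in HS+Lasp, 5.92, 6.55 and 6.23 CPM in HS and 11.5, 14.1 and 12.3 CPM in control and a log2 fold change of -1.02 ± 0.62 (edgeR p of 0.124). The low values of UBE2T in the heated groups stood beside partners on both sides of 0.

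The other lists lay near the median of all genes in HS over control. The median log2 fold change was -0.17 over 6 E1 enzymes, -0.13 over 6 E2s without the UBE2 name, -0.04 over 10 ligases of the Rad6 and UBE2N branches, 0.05 over 18 SUMO and NEDD8 ligases and proteases and -0.01 over 11 ER degradation ligases. For HS+Lasp over HS the list medians ran from -0.28 (E1 enzymes) to 0.05 (APC/C subunits, activators and inhibitors). In that comparison UBA1, the main E1 of ubiquitin, had 139, 136 and 206 CPM in HS+Lasp, 70.4, 94.7 and 109 CPM in HS and 125, 127 and 128 CPM in control, with no overlap between HS+Lasp and HS. Its log2 fold change was 0.81 ± 0.25 (edgeR p of 0.00722, adjusted p of 0.738). RNF145, an ER-resident ligase that uses UBE2G2, had 130, 124 and 144 CPM in HS+Lasp, 55.2, 49.5 and 86.9 CPM in HS and between 91.4 and 95 CPM in the 3 control libraries. Its log2 fold change of HS+Lasp over HS was 1.05 ± 0.25 (edgeR p of 0.00143, adjusted p of 0.738), and DESeq2 called it higher with an adjusted p of 0.0160. UBE2G2 itself had a log2 fold change of 0.03 ± 0.28 in that comparison. On the APC/C lists, MAD2L1 was lower in HS+Lasp than in HS without overlap (-0.606 ± 0.211, edgeR p of 0.0151, adjusted p of 0.738). PLK1 was higher with overlap (0.939 ± 0.345, edgeR p of 0.0198, adjusted p of 0.738).

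**Figure D4:**
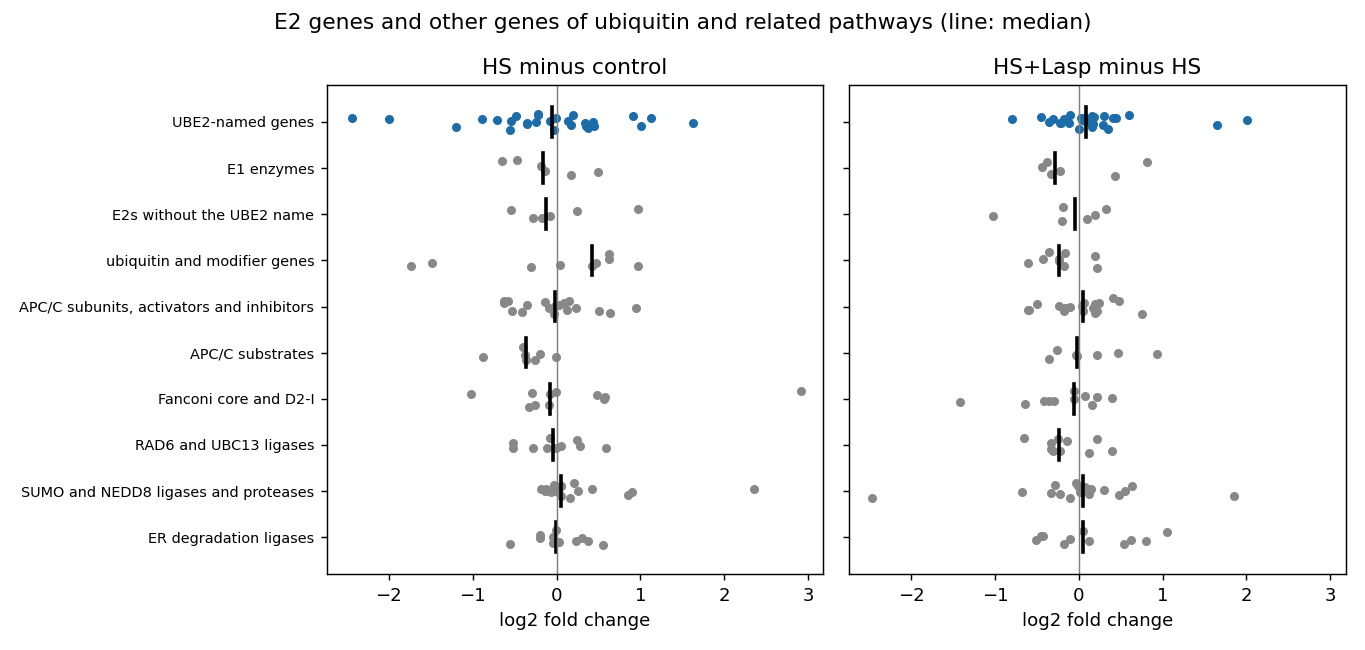
Log2 fold change (edgeR) of the 28 UBE2-named genes (blue) and of the tested genes of 9 related lists (grey) for HS minus control (left) and HS+Lasp minus HS (right), with the median of each list as a black line. The 7 APC/C substrates lie below 0 in the left panel (median -0.37), GMNN only just (-0.009), and UBB (-1.74) is the ubiquitin gene farthest to the left.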

How the data were processed

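RNA of pig MII oocytes was measured in 3 groups of 3 libraries, grouped by the sample titles. Per the labels' protocols, cDNA was primed with oligo(dT), amplified by PCR and sequenced in pairs, without strand marking or described molecular identifiers, so counts are not independent molecules. The deposited table holds whole-number read counts and FPKM per gene. Tools listed in the submitters' processing notes, with no roles, are StringTie 2.1.6, HISAT2 2.2.1, cutadapt 1.9, edgeR and DESeq2, and no source used here names a genome build. The counts were used as deposited. The FPKM, computed by the authors, served to compare genes within a library. A further 6 per-sample columns were left aside. The table itself gives a symbol for 13893 genes, and a gene name table added 116.

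The control libraries were averaged to 1 library (rounded mean), which is assumed to vary like the others. The 7 libraries were scaled by TMM and tested with edgeR 4.0.16 (R 4.3.3, glmQLFit with robust = TRUE and glmQLFTest, 4 residual degrees of freedom) over the 15012 genes that filterByExpr kept on the 9 libraries. A call is a Benjamini-Hochberg adjusted p under 0.05. The scripts were tested on simulated data. CPM are counts scaled to library size after TMM, and a library of 41693395 counts gives 3 counts a value of 0.072 CPM. A fold change is on the log2 scale, its SE is its size over the root of F, and intervals are at 95%. DESeq2 1.42.0, the 9-library fit, other filters and scaling and leaving out each library were alternatives.

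The members, the 9 pathway lists and the 5 marker lists were chosen with earlier results of these data known. Given in full were UBE2C, UBE2S and UBE2T, the 5 members with the smallest p on each side of 0 per comparison and the 5 with the highest mean FPKM. Of each pathway list the gene of smallest p was to be named. The text names fewer, and genes named beyond this rule were chosen after their values were seen: UBE2W, UBE2Q2, UBE2O, UBE2E2, UBE2J1, UBE2Z, UBE2D4, UBE2L6, CCNB1, FANCL, FANCD2, FANCI and the 3 unnamed E2 rows.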

Additional observations from a re-analysis of the deposited data

How the results depend on the processing

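The number of E2 genes called was 0 in each comparison with the averaged control and moved with the test. HS against control gave 3 with 9 libraries, 1 with DESeq2 and 3 with a replicate block, and HS+Lasp against control gave 2, 1 and 3. The replicate block also used all 9 libraries, and replicate numbers do not pair the samples (correlations of same-numbered deviations of -0.02 to 0.05, others of -0.04 to 0.04). DESeq2 kept the averaged control, while the replicate block changed the number of control samples and the model together, and the cause of these differences was not tested. The count stayed at 0 under DESeq2 size factors, no filter, a mean count of at least 50, the filter on 7 libraries and each left-out library. Leaving out 1 library at a time, 0 to 4 E2 genes had HS+Lasp and HS libraries without overlap, which fewer samples allow, and the E2 median of HS+Lasp over HS ran from -0.0451 to 0.216, that of HS over control from -0.135 to 0.0195 and that of HS+Lasp over control from -0.05 to 0.101. Over the same left-out libraries, HS+Lasp over HS ran from -0.0442 to 0.446 for UBE2C, from -0.0482 to 0.47 for UBE2S, from -0.22 to 0.34 for UBE2T and from -0.38 to 0.26 for UBE2V1, and HS over control ran from -0.0643 to 0.579 for UBE2V1. Of 544 alternative values of named members, 8 turned sign, all on leaving out 1 library, and 13 passed the threshold. The filter on 7 libraries and the median over the 26 members with at least 1 CPM (-0.02, 0.09 and 0.09 on the log2 scale for HS over control, HS+Lasp over HS and HS+Lasp over control) were chosen after seeing the data. Without a filter on low counts, UBE2T in HS over control (log2 fold change of -2.02) stayed uncalled but lay close to the threshold. Averaging leaves control without a measured spread. Fold changes of members under 1 CPM are poorly estimated, since their few counts were spread unevenly over the libraries.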
